A study of Mus musculus with 8 samples.

Results

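The lysosomal genes described here are 41 genes of soluble hydrolases, their activator proteins, membrane proteins of the lysosome and transcription factors that control them. They were taken by symbol, and all 41 were found among the 54251 genes of the expression table and all 41 were among the 15607 genes tested. They comprise 13 cathepsins and other peptidases, 11 glycosidases and sulfatases, 7 lipid hydrolases, lipid activators and sterol carriers, 7 membrane proteins, progranulin, and the transcription factors TFEB and TFE3. Their mean over all libraries was at least 2.3 FPKM, a count of fragments scaled to gene length and library size.

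RNA came from kidneys of adult male C57BL/6 mice, in 4 groups of 2 libraries, each made from pooled RNA of 3 mice. Errors thus reflect differences between libraries and not between single mice. WT is wild type and KO carries, per the labels, a knockout of G9a (Ehmt2), a histone methyltransferase, restricted to the kidney by a driver that the labels do not name. WT_IR and KO_IR are those genotypes after ischemia-reperfusion (IR), with the left renal pedicle clamped for 45 min and the kidney taken at day 3. The labels leave unsaid whether WT and KO kidneys were from unoperated mice or were the unclamped kidney of operated ones.

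Lysosomes are acid compartments that break down proteins, glycans and lipids delivered by endocytosis and autophagy. In the kidney the proximal tubule takes up filtered proteins and degrades them in lysosomes, and macrophages, which enter injured kidney, carry a lysosome system of their own. TFEB and TFE3 bind a promoter element built on the E-box CACGTG and are known to raise the expression of many lysosomal genes together.

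This E-box was looked for because it is the sequence that the factors among the 41 genes recognise. RefSeq promoters (GRCm38.p6, 250 bases before to 50 after the gene start) were matched for 37 members. These had 44 promoters, and a gene counted if any of its promoters held the sequence. CACGTG, which reads the same on both strands, was in 12 of these 37 genes (32.4%), against 8.09% of 27025 genes in the promoter table and 11.6% of 10439 tested genes. The extended form GTCACGTG, searched on both strands and always overlapping the E-box, was in 9 members (24.3%), against 2.55% and 4.72%. The palindrome TCACGTGA was in 4 members (10.8%), against 1.12% and 2.15%. Because these factors are known to act on lysosomal genes, higher shares could be foreseen, and they were not tested.

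The 250 bases before the start of Ctsd and of Lamp1 are shown because both genes hold several E-boxes and moved in opposite directions after IR in WT on the FPKM scale. They lie at chr7:142387828-142388077 on the minus strand and chr8:13158911-13159160 on the plus strand of GRCm38.p6. Each is written from 5′ to 3′ along its gene, with every CACGTG in capitals.
Ctsd: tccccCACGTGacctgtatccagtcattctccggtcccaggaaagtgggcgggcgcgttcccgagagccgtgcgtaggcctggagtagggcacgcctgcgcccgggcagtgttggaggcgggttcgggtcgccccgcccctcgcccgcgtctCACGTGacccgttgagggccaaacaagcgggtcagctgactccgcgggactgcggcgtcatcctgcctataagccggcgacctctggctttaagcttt
Lamp1: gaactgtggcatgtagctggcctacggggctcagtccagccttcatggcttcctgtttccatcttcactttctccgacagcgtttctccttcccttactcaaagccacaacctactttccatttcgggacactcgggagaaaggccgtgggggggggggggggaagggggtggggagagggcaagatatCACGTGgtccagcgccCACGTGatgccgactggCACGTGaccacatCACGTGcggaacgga

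The other 7 genes with the extended form are shown by a 30-base window around 1 E-box each, since the flanking bases are what separates this form from a plain E-box.
Glb1: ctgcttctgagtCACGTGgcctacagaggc
Naglu: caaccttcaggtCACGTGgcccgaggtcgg
Lgmn: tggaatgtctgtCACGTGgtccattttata
Arsa: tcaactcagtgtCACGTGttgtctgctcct
Ctsa: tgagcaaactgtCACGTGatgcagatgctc
Mcoln1: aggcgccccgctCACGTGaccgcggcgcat
Gla: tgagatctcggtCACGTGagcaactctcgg
On GRCm38.p6 these windows lie at chr9:114401018-114401047 (plus strand), chr11:101070009-101070038 (plus), chr12:102439124-102439153 (minus), chr15:89477423-89477452 (minus), chr2:164833749-164833778 (plus), chr8:3500462-3500491 (plus) and chrX:134601182-134601211 (minus). Plain E-boxes alone were in Gaa, Ctsl and Ctsf. These matches are a description of the letters in the window and not of binding.

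Depth was 14965670 to 17596690 fragments per library, as recovered from the FPKM values. The FPKM denominator was 1.18 and 1.19 times the fragments on genes in WT_IR and 0.921 to 1.03 times in the other 6 libraries. It was thus not the plain sum of fragments on genes, and directions in comparisons with WT_IR depend on the scale. TPM rescales each library so that all genes sum to the same total. It moved the median log2 change of all genes by 0.453 in WT_IR minus WT, by -0.326 in KO_IR minus WT_IR and by -0.396 in the interaction. Median-of-ratios factors, which scale a library by the median ratio of its genes to their means over libraries, moved these medians by 0.0241, -0.0122 and -0.0207. With those factors the sign turned in 0 of 41 members in WT_IR minus WT. Ehmt2 itself was at 33.4 and 30.3 FPKM in WT and 34.5 and 35.8 in WT_IR, with 28.1 and 26.4 in KO and 27.3 and 26.3 in KO_IR. It was lower in KO_IR than in WT_IR (limma adjusted p = 0.014) and not called in KO minus WT (adjusted p = 0.37), and the values cover the whole gene, not the deleted part alone.

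In WT kidneys IR split the lysosomal genes. Of 41 members 15 were higher and 17 lower in WT_IR than in WT at a limma adjusted p under 0.05, where 19.1% of all tested genes were higher and 23.2% lower. Among the 10695 tested genes at least as abundant as the lowest member, these shares were 18.0% and 30.0%. The members' median log2 change was -0.086, beside -0.023 for all genes, and single members ranged from -1.48 to 3.06. All 15 that rose also passed on the TPM scale, with median-of-ratios factors and with voom on fragments, whereas only 4 of the 17 that were lower (Arsb, Gm2a, Galc and Ctsf) passed in that direction on every scale. With median-of-ratios factors 16 of the 17 lower calls held, all but Naglu, and with voom 7. On the TPM scale 22 members were higher and 4 lower, where 47.97% of all genes were higher and 9.96% lower.

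**Figure D1:**
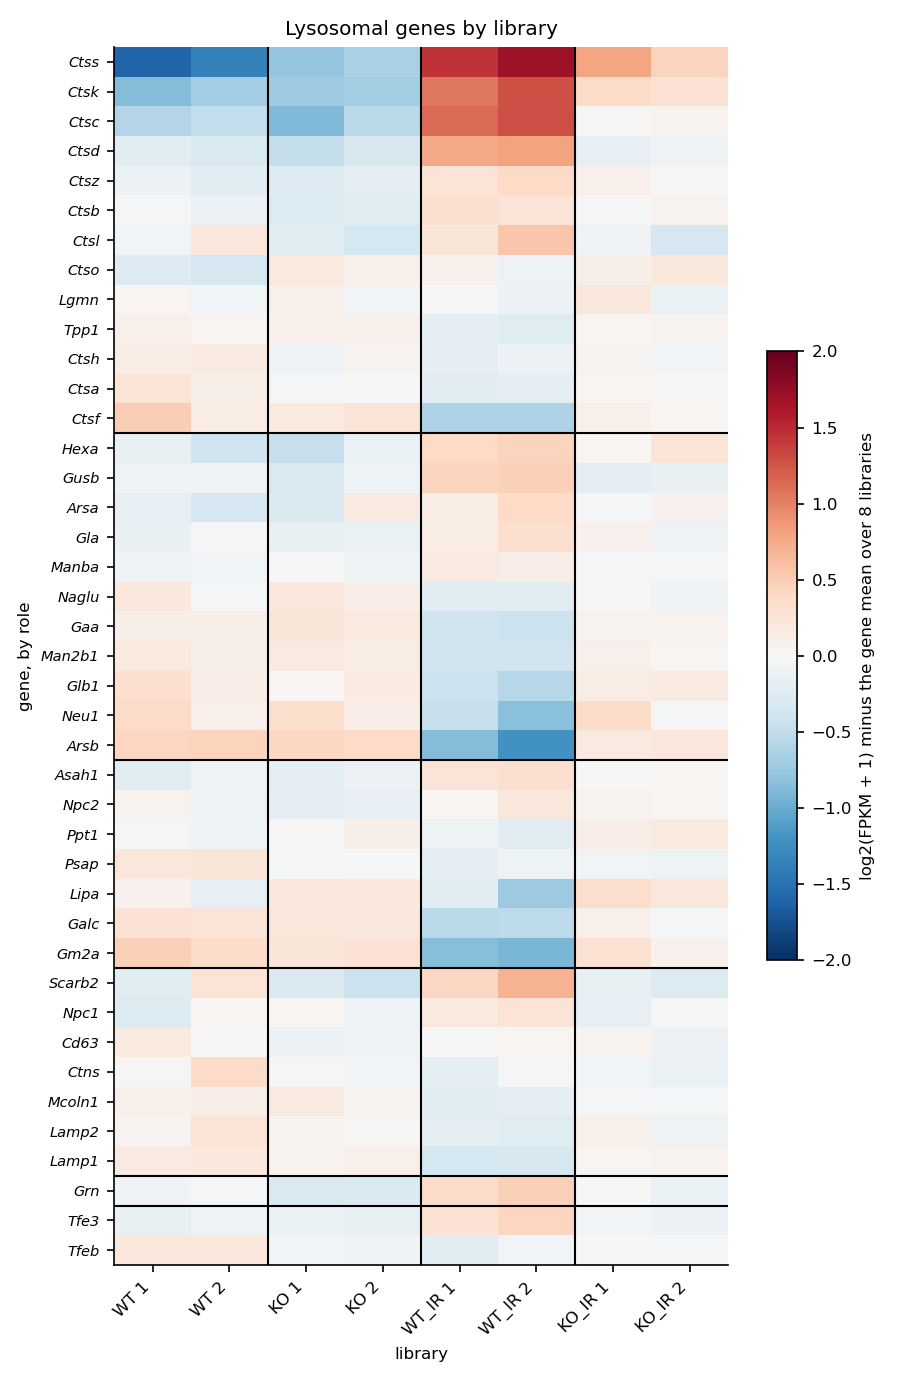
Level of each of the 41 genes (rows, by role) in each of the 8 libraries (columns), as log2(FPKM + 1) minus the gene's mean over the libraries. Both WT_IR columns stand out, red for Ctss, Ctsk, Ctsc and Ctsd and blue for Arsb and Gm2a, directions that held on the TPM scale; the blue of Lamp1 did not pass there.

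The 4 largest rises were in cathepsins, the main proteases of the lysosome. Ctss, a cysteine protease of antigen-presenting cells, was at 8.27 and 10.1 FPKM in WT and 76.1 and 90.8 in WT_IR, with 15.5 and 17.0 in KO and 48.0 and 37.6 in KO_IR. Both WT_IR libraries lay above all others, and the 4 groups did not overlap. The WT_IR mean was 9.11 times the WT mean, a log2 change of 3.06 ± 0.15 (SE; limma adjusted p = 5.08e-05).

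Ctsk, a collagen-degrading cysteine protease best known from osteoclasts, was at 1.63 and 1.97 FPKM in WT and 8.97 and 10.6 in WT_IR, with 1.95 and 1.98 in KO and 5.23 and 4.92 in KO_IR. Ctsc, a dipeptidyl peptidase that activates proteases of leukocyte granules, was at 6.36 and 6.90 in WT and 23.4 and 26.2 in WT_IR, with 4.99 and 6.60 in KO and 10.3 and 10.6 in KO_IR. Both genes were high in WT_IR and intermediate in KO_IR, while WT and KO overlapped. Their log2 changes in WT were 1.94 ± 0.11 (limma adjusted p = 6.23e-05) and 1.76 ± 0.13 (adjusted p = 0.000107).

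Ctsd, the main aspartic protease of lysosomes, was already abundant, at 206 and 194 FPKM in WT and 173 and 193 in KO. It reached 409 and 419 in WT_IR and stood at 214 and 226 in KO_IR. Only the WT_IR libraries were far from the rest, at 2.07 times the WT mean (log2 change 1.05 ± 0.096, limma adjusted p = 0.000236). It moved from the fifth to the third most abundant member by FPKM.

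The other cathepsins moved less or in the opposite direction. Ctsz, a carboxypeptidase, rose by 0.51 ± 0.096 (log2, SE), Ctsb, an abundant cysteine protease, by 0.37 ± 0.085, and Ctso, a less studied cysteine protease, by 0.29 ± 0.097. The call of Ctsb was lost without WT replicate 2 or without WT_IR replicate 1 (limma adjusted p = 0.06 and 0.071), and that of Ctso when any library but WT_IR replicate 2 was left out (adjusted p up to 0.24). Ctsl, another cysteine protease, had 105 and 128 FPKM in WT and 129 and 161 in WT_IR and did not pass (adjusted p = 0.164). Lgmn, the asparaginyl endopeptidase, was the most abundant peptidase in WT at 445 and 415 FPKM, with 431 and 398 in WT_IR, groups that overlapped.

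Ctsf, a widely expressed cysteine protease, fell from 65.0 and 51.2 FPKM in WT to 29.7 and 29.8 in WT_IR, with 52.9 and 55.1 in KO and 49.8 and 47.6 in KO_IR. The WT_IR libraries were below every other library (log2 change -0.93 ± 0.12, limma adjusted p = 0.000749). Ctsa, which protects glycosidases in a complex, Ctsh, an aminopeptidase, and Tpp1, a tripeptidyl peptidase, were lower in FPKM with log2 changes of -0.40, -0.32 and -0.29, and on the TPM scale their changes were positive, at 0.11, 0.19 and 0.21. Together the 13 peptidases summed to 1332 and 1274 FPKM in WT and 1638 and 1678 in WT_IR, with 1241 and 1227 in KO and 1437 and 1302 in KO_IR.

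**Figure D2:**
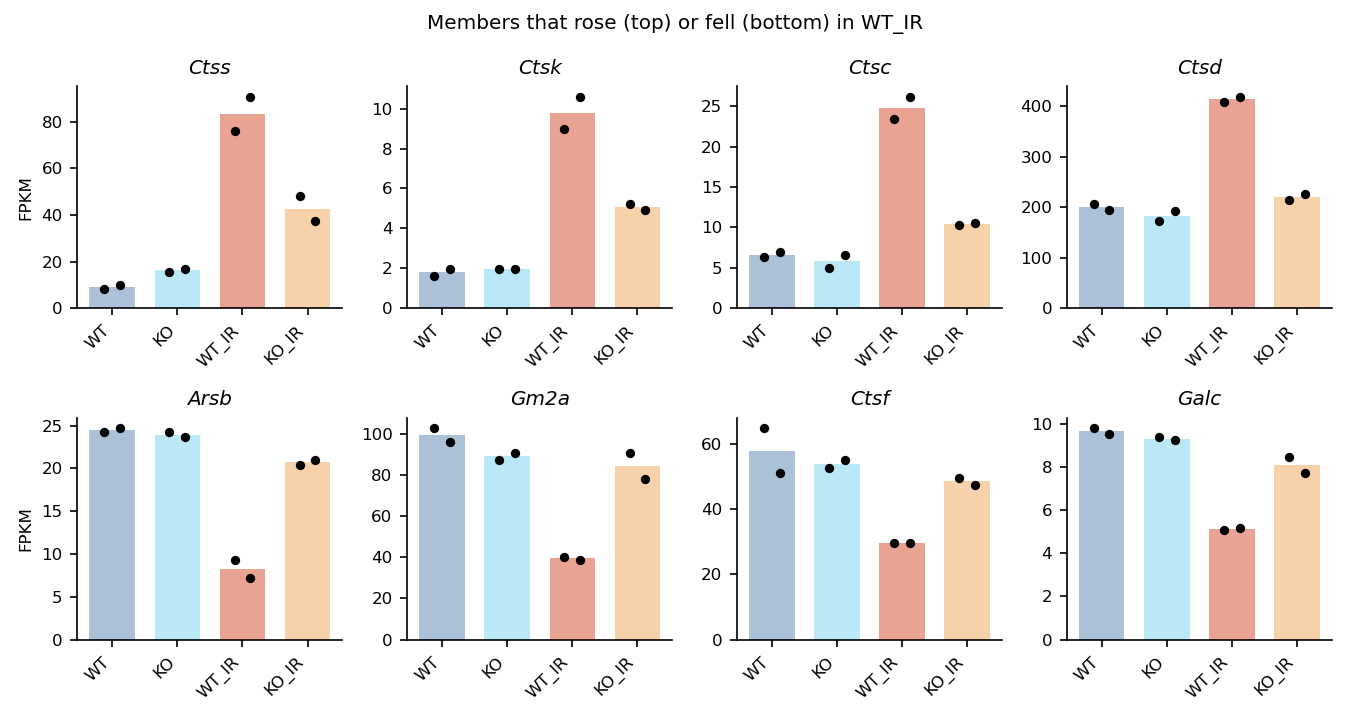
FPKM of 8 members in each group; points are the libraries, bars their mean (n = 2 per group). Top, 4 cathepsins that rose in WT_IR, with Ctsd at 414 against 200 FPKM; bottom, the 4 genes that were lower in WT_IR on every scale tried, with Arsb at 8.24 against 24.5 FPKM.

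Among the enzymes of glycan breakdown the lower calls outnumbered the higher ones, 6 against 4 of 11, on the FPKM scale, with 1 against 5 on the TPM scale. All tested genes also leaned lower by FPKM, with 23.2% lower and 19.1% higher. Among those at least as abundant as the lowest member these shares were 30.0% and 18.0%. On the TPM scale 9.96% of all genes were lower and 47.97% higher. Arsb, the sulfatase of dermatan sulfate, had the largest fall of all 41 genes. It was at 24.3 and 24.7 FPKM in WT and 9.33 and 7.16 in WT_IR, with 24.2 and 23.7 in KO and 20.4 and 21.0 in KO_IR. The WT_IR libraries stood well below the other 6, at 0.336 times the WT mean (log2 change -1.48 ± 0.11, limma adjusted p = 0.000134).

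Neu1, the lysosomal sialidase, and Glb1, the beta-galactosidase that it forms a complex with, were lower by FPKM, with log2 changes of -0.89 ± 0.19 and -0.73 ± 0.10. Neither passed on the TPM scale. Neu1 was at 169 and 138 FPKM in WT and 93.4 and 71.8 in WT_IR, and Glb1 at 73.7 and 63.8 in WT and 43.0 and 38.9 in WT_IR, so the groups did not overlap. The call of Neu1 was lost without WT replicate 1 or WT_IR replicate 2 (limma adjusted p up to 0.0863 over all settings). Man2b1, an alpha-mannosidase, Gaa, the acid alpha-glucosidase of glycogen, and Naglu, an enzyme of heparan sulfate breakdown, had log2 changes of -0.57, -0.53 and -0.31, and on the TPM scale none of these calls held and Naglu was at 0.18.

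Hexa, the alpha subunit of beta-hexosaminidase, rose from 30.6 and 25.5 FPKM in WT to 45.2 and 46.5 in WT_IR (log2 change 0.69 ± 0.14, limma adjusted p = 0.00733). Gusb, the beta-glucuronidase, rose from 9.92 and 10.1 to 14.8 and 15.2 (0.54 ± 0.092, adjusted p = 0.00304). In both genes every WT_IR library was above every library of the other groups. Arsa, the sulfatase of sulfatide, and Manba, a beta-mannosidase, rose by 0.53 ± 0.17 and 0.24 ± 0.073, calls that were each lost when any 1 of 6 libraries was left out, those of WT and WT_IR among them (limma adjusted p up to 0.197 and 0.149 over all settings). Gla, the alpha-galactosidase that is deficient in Fabry disease, was low, at 1.95 and 2.26 FPKM in WT and 2.63 and 3.11 in WT_IR, and was not called (adjusted p = 0.072).

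In the lipid group Gm2a, the activator that presents GM2 ganglioside to beta-hexosaminidase, was at 103 and 96.1 FPKM in WT and 40.4 and 38.9 in WT_IR, with 87.7 and 91.0 in KO and 91.1 and 78.1 in KO_IR. Galc, the galactosylceramidase, was at 9.81 and 9.56 in WT and 5.10 and 5.16 in WT_IR, with 9.39 and 9.24 in KO and 8.46 and 7.72 in KO_IR. In both genes the WT_IR pair lay below all other libraries, with log2 changes from WT of -1.30 ± 0.097 (limma adjusted p = 0.000117) and -0.80 ± 0.08 (adjusted p = 0.000316). Hexa and Gm2a, whose products act together on GM2 ganglioside, thus moved in opposite directions, on the TPM scale as well.

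Asah1, the acid ceramidase, rose from 24.5 and 27.0 FPKM to 34.7 and 36.4 (log2 change 0.45 ± 0.081, limma adjusted p = 0.00403). Psap, the precursor of the saposin activators and the most abundant member in every group, was at 1153 and 1166 FPKM in WT and 857 and 916 in WT_IR, with 953 and 983 in KO and 945 and 917 in KO_IR. Both WT libraries were above the other 6. Its log2 change in WT was -0.39, but 0.12 on the TPM scale, and its call was lost when any 1 of 6 libraries was left out (adjusted p up to 0.824 over all settings). Lipa, the acid lipase, Ppt1, a thioesterase, and Npc2, a soluble sterol carrier, were not called, with adjusted p of 0.0731, 0.31 and 0.243.

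The membrane proteins showed small changes. Lamp1, a main structural glycoprotein of the lysosome membrane, was at 494 and 503 FPKM in WT and 339.7 and 349 in WT_IR, with 458 and 466 in KO and 448 and 455 in KO_IR. It was lower in WT_IR by FPKM (log2 change -0.53 ± 0.092, limma adjusted p = 0.00334), and the call did not hold on the TPM scale or with voom. Its relative Lamp2 and the calcium channel gene Mcoln1 had log2 changes of -0.39 and -0.32 by FPKM and of 0.12 and 0.16 on the TPM scale. Scarb2, which carries beta-glucocerebrosidase to lysosomes, rose from 10.2 and 14.8 FPKM to 16.5 and 20.2 (0.54 ± 0.17, adjusted p = 0.0434), a call lost when any library but WT replicate 2 was left out (adjusted p up to 0.21 over all settings). Cd63, a tetraspanin, Ctns, the cystine exporter, and Npc1, the sterol exporter, were not called, with adjusted p of 0.57, 0.0999 and 0.0713.

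Grn, progranulin, a secreted and lysosomal protein needed for hydrolase function, rose from 72.0 and 73.9 FPKM in WT to 97.0 and 105 in WT_IR, with 60.8 and 61.4 in KO and 75.0 and 68.4 in KO_IR (log2 change 0.46 ± 0.084, limma adjusted p = 0.00438). The transcription factors diverged in FPKM. Tfe3 rose from 3.99 and 4.16 FPKM in WT to 5.75 and 6.45 in WT_IR (0.48 ± 0.09, adjusted p = 0.0046), and was at 4.05 and 4.01 in KO and 4.31 and 4.10 in KO_IR. Tfeb was at 9.49 and 9.53 in WT and 6.78 and 7.74 in WT_IR, with 7.69 and 7.65 in KO and 8.04 and 7.88 in KO_IR. Its log2 change of -0.35 by FPKM turned to 0.12 on the TPM scale. These are RNA levels, and the location of either protein in the cell was not measured.

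Leaving out single libraries lowered the counts of members in WT. Shares of all genes in such fits are not given here, and whether the drop was particular to the members was not tested. The number higher was 10 without WT_IR replicate 1 and 11 or 12 without any other library. The number lower was 10 without WT_IR replicate 2, 11 without WT_IR replicate 1, 12 without either WT library and 15 or 16 without a KO or KO_IR library. The calls that held in every such fit and on every scale were Ctss, Ctsk, Ctsc, Ctsd, Ctsz, Hexa, Gusb, Asah1, Grn and Tfe3 upward, and Arsb, Gm2a, Galc and Ctsf downward.

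The summed FPKM of the 41 genes was 4161 and 4042 in WT and 3793 and 3881 in WT_IR, with 3731 and 3753 in KO and 3985 and 3721 in KO_IR. As a share of the FPKM of all genes this was 0.974% and 0.967% in WT and 1.29% and 1.30% in WT_IR, with 0.941% and 0.937% in KO and 0.998% and 1.03% in KO_IR. The sum was thus highest in WT and the share highest in WT_IR. Psap, Lamp1, Lgmn, Cd63 and Ctsd were the 5 most abundant members in each group, in an order that differed in WT_IR, where Ctsd ranked above Lamp1. The lowest were Ctsk in WT and KO and Gla in WT_IR and KO_IR.

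In KO kidneys IR changed few of these genes. In KO_IR minus KO 3 members were higher and 0 lower (limma adjusted p under 0.05), where 0.948% of all genes were higher and 0.0769% lower. The 3 were Ctss with a log2 change of 1.34 ± 0.15 (2.63 times the KO mean, limma adjusted p = 0.0186), Ctsk with 1.03 ± 0.11 (2.58 times, adjusted p = 0.0174) and Ctsc with 0.76 ± 0.13 (1.80 times, adjusted p = 0.0499, just inside the threshold). At an unadjusted p under 0.05 9 members (22.0%) were higher and 0 lower, beside 8.0% and 4.7% of all genes. Voom on fragments called 3 higher and 0 lower, beside 2.26% and 0.13% of all genes. The other 6 of these 9 were Ctsb, Ctsd, Ctsz, Hexa, Npc2 and Grn, with log2 changes of 0.23 to 0.45.

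The 3 calls in KO were not stable when single libraries were left out. No member was called without KO replicate 1, KO_IR replicate 1, WT_IR replicate 1 or WT_IR replicate 2, of which the WT_IR libraries enter through the shared estimate of spread alone, and 1 or 2 were called without each of the others. For Ctss the adjusted p was 0.133 without KO replicate 1 and 0.0977 without KO_IR replicate 1, for Ctsk 0.116 and 0.102, and for Ctsc 0.213 and 0.153. The log2 changes in these fits were 1.27 and 1.16 for Ctss, 1.03 and 1.00 for Ctsk, and 0.59 and 0.78 for Ctsc. None was called with only the KO and KO_IR libraries in the fit or with no filter on low genes.

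**Figure D3:**
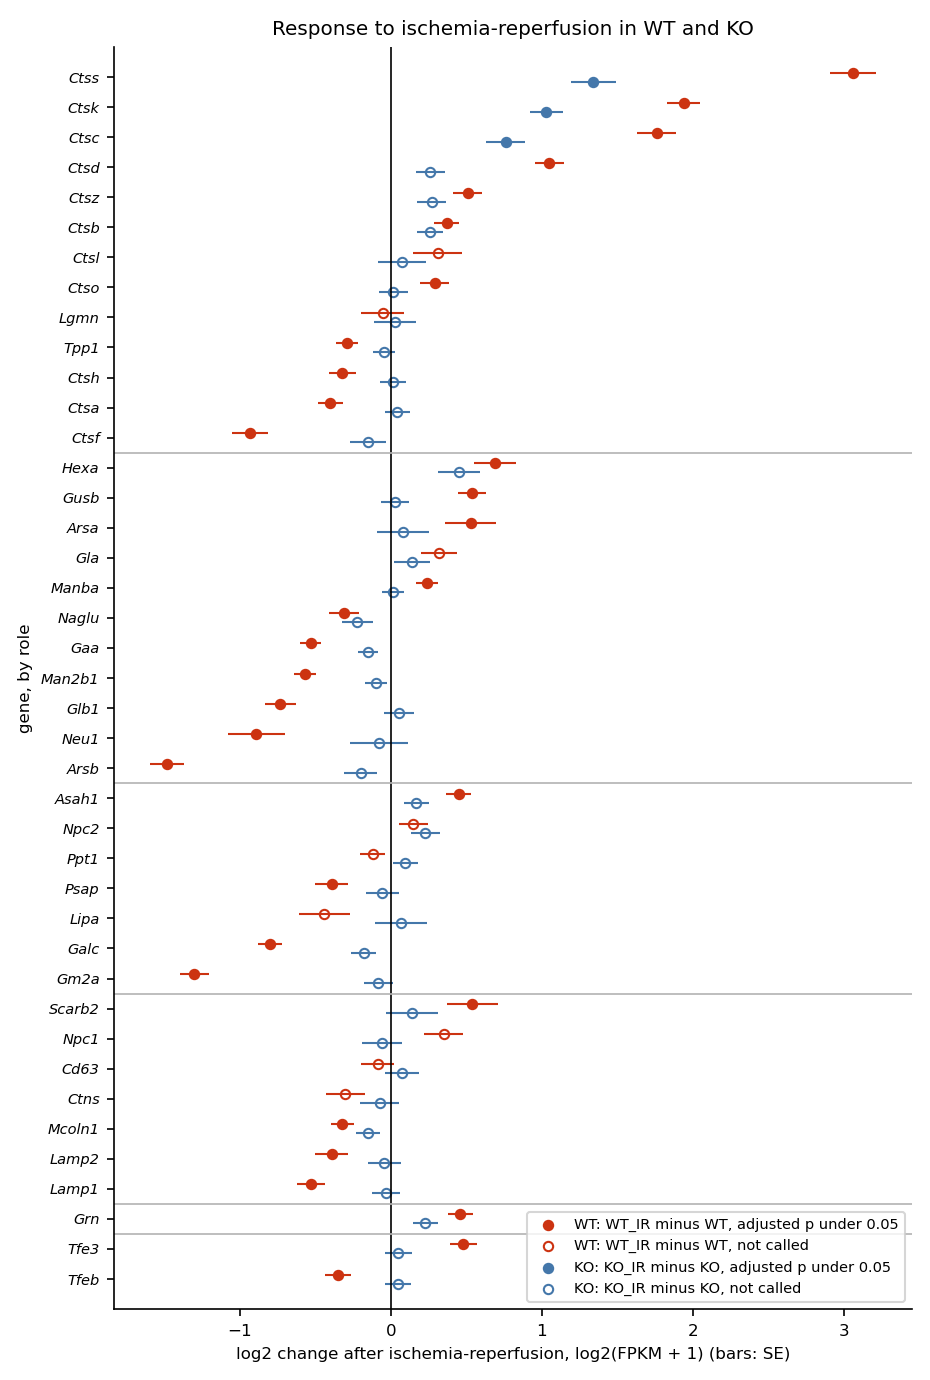
Log2 change after IR of each of the 41 genes, from log2(FPKM + 1), in WT (red) and KO (blue); bars are SE and filled points have an adjusted p under 0.05. Blue points lie nearer to 0 than red ones except for Npc2, and small negative red values such as Psap (-0.39) were positive (0.12) on the TPM scale.

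The change after IR had the same sign in both genotypes in 32 of 41 members (78.0%) and in 71.3% of all tested genes. By FPKM it was smaller in size in KO in 40 of 41 members (97.6%), in 79.8% of all tested genes, and in 99.5% of the 6596 genes called in WT, which were picked for a change there. On the TPM scale it was smaller in 37 members (90.2%) and 87.0% of all genes, and with voom in 34 (82.9%) and 84.6%. By FPKM the exception was Npc2, with 0.15 in WT and 0.23 in KO. The median size of the log2 change was 0.45 in WT and 0.08 in KO for the members, and 0.33 and 0.12 for all tested genes. On the TPM scale and with voom the share of members with a smaller change in KO lay near that of all genes. With median-of-ratios factors the change was smaller in KO in 37 members (90.2%) and in 79.9% of all genes.

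The interaction tests whether the response to IR differed between the genotypes. It was called higher in 9 members and lower in 5, where 9.62% of all genes were called higher and 6.68% lower. A negative value means that the log2 change in KO lay below that in WT. The 5 called were rises that were smaller in KO. They were Ctss (-1.72 ± 0.22, limma adjusted p = 0.00525), Ctsk (-0.91 ± 0.16, adjusted p = 0.0116), Ctsc (-0.99 ± 0.18), Ctsd (-0.78 ± 0.14) and Gusb (-0.52 ± 0.13). A positive value means that the log2 change in KO lay above that in WT. Arsb (1.27 ± 0.16, limma adjusted p = 0.00527) and Gm2a (1.22 ± 0.14, adjusted p = 0.00413) had a fall that was smaller in KO.

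The other positive values were 0.79 for Glb1 and Ctsf, 0.62 for Galc, 0.50 for Lamp1, 0.47 for Man2b1, 0.44 for Ctsa and 0.38 for Gaa, none of which passed on the TPM scale, where Gaa was at -0.044. On that scale 2 members were called higher and 16 lower, where 4.77% of all genes were higher and 24.24% lower. With median-of-ratios factors 8 of the 9 positive calls held, and with voom 5. Ctss, Ctsk, Arsb and Gm2a kept their interaction call on every scale and without each library in turn. Fewer members were called in either direction without WT_IR replicate 2 or without KO replicate 2. The call of Ctsc was lost without WT_IR replicate 2 (adjusted p = 0.0527), and that of Ctsd without WT_IR replicate 2 or KO replicate 2 (0.0502 and 0.0508). Gusb was lost without any 1 of 7 libraries, all but KO replicate 1 (adjusted p up to 0.113 over all settings), and Lamp1 and Gaa without each of the 8.

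After IR the genotypes differed in 22 members. In KO_IR minus WT_IR 12 were higher and 10 lower by limma adjusted p under 0.05, where 16.6% of all genes were higher and 13.5% lower. This comparison and WT_IR minus WT share the WT_IR libraries, so that their values are not independent of each other. Ctsc (-1.17 ± 0.13), Ctss (-0.95 ± 0.15), Ctsd (-0.91 ± 0.096), Ctsk (-0.83 ± 0.11), Gusb (-0.63 ± 0.092) and Grn (-0.49 ± 0.084) were lower in KO_IR on every scale and without each library in turn. Arsb (1.24 ± 0.11), Gm2a (1.07 ± 0.097), Ctsf (0.69 ± 0.12) and Galc (0.57 ± 0.08) were higher in KO_IR in all of those fits.

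Lower as well, but lost without 1 or more libraries, were Scarb2 (-0.77), Ctsl (-0.60), Tfe3 (-0.45) and Asah1 (-0.27). Tfe3 was lost without WT_IR replicate 2 alone (limma adjusted p = 0.0702), and Ctsl without KO_IR replicate 2 or WT_IR replicate 2 (adjusted p = 0.116 and 0.148). The other 8 that were higher in KO_IR by FPKM, Neu1 (0.81), Lipa (0.77), Glb1 (0.65), Gaa (0.48), Man2b1 (0.48), Lamp1 (0.39), Ppt1 (0.33) and Tpp1 (0.28), did not pass on the TPM scale, where Ppt1 and Tpp1 were at -0.021 and -0.073. On that scale 4 members were higher and 20 lower, where 9.18% of all genes were higher and 37.91% lower. With median-of-ratios factors all 12 higher calls held, and with voom 9. Fewer members passed in either direction without WT_IR replicate 2.

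Without IR no member was called between the genotypes. In KO minus WT 0 members were higher and 0 lower by limma adjusted p, where 0.16% of all genes were higher and 0.0577% lower. At an unadjusted p under 0.05 Ctss (log2 change 0.77 ± 0.15, limma adjusted p = 0.142) and Ctso (0.45 ± 0.097, adjusted p = 0.154) were higher, and Tfeb (-0.28), Grn (-0.25) and Ctsa (-0.21) lower, with adjusted p of 0.288 to 0.396. These 5 are 12.2% of the members, near the 11.9% of all genes. Voom on fragments called 0, with 6 members (14.6%) and 11.9% of all genes at an unadjusted p under 0.05. The 2 KO libraries lay above the 2 WT libraries for Ctss (15.5 and 17.0 against 8.27 and 10.1 FPKM), and for Ctso (8.82 and 8.29 against 6.23 and 5.77).

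Markers of cell types also changed between the groups by FPKM. Among all tested genes 19.1% were higher and 23.2% lower in WT_IR minus WT. In KO_IR minus KO 0.948% were higher and 0.0769% lower, and in KO_IR minus WT_IR 16.6% and 13.5%. All 11 tested macrophage markers were higher in WT_IR than in WT, 6 were higher in KO_IR than in KO, and 8 were lower in KO_IR than in WT_IR. The summed FPKM of the 12 markers listed was 54.2 and 57.9 in WT and 553 and 536 in WT_IR, with 70.1 and 107 in KO and 234 and 296 in KO_IR, and no marker was at 0 in any library. All 10 proximal tubule markers were lower in WT_IR than in WT and higher in KO_IR than in WT_IR, and none was called in KO_IR minus KO. Their sum was 2916 and 2471 FPKM in WT and 802 and 544 in WT_IR, with 3237 and 3113 in KO and 2829 and 2580.4 in KO_IR. On the TPM scale 11 macrophage markers were higher and 9 proximal tubule markers lower in WT_IR, beside 47.97% and 9.96% of all genes.

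Markers of other cell types also changed, beside the same shares of all tested genes. All 7 fibroblast and pericyte markers were higher in WT_IR than in WT, 2 were higher in KO_IR than in KO, and 3 were lower in KO_IR than in WT_IR. Their sum was 28.0 and 31.4 FPKM in WT and 286 and 213 in WT_IR, with 28.8 and 38.0 in KO and 129.6 and 90.1 in KO_IR. Of the T and NK cell markers 4 of 4 tested, and of the neutrophil markers 3 of 4 tested, were higher in WT_IR than in WT, and 3 of each were lower in KO_IR than in WT_IR. The sums over the 6 markers listed for each ranged up to 22.7 and 17.7 FPKM in WT_IR and up to 8.69 and 5.79 elsewhere, and Cd3e, Ly6g and Cxcr2 were at 0 in some libraries. Of 10 markers of other nephron segments 9 were lower in WT_IR than in WT and 8 higher in KO_IR than in WT_IR, with sums of 1289.8 and 1444 FPKM in WT_IR against 2014 to 3281 in the other 6 libraries and Pvalb at 0 in some. Endothelial markers were more even, with 3 of 6 higher and 1 lower in WT_IR and sums of 39.7 to 59.5 FPKM.

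The tubular injury gene Havcr1 was at 0.828 and 1.23 FPKM in WT and 344 and 345 in WT_IR, with 0.593 and 7.50 in KO and 33.1 and 47.3 in KO_IR. KO replicate 2 thus stood apart from KO replicate 1 in Havcr1 and in the macrophage sum. In whole kidney RNA, fewer cells of a type and less RNA per cell cannot be told apart, and the part of these cell types in the results was not tested. The ratio of Ctss to the macrophage sum, chosen after its values were seen, was 0.127 to 0.22 in all 8 libraries. The same ratio ranged from 0.738 to 3.80 for Ctsd, 0.0357 to 0.119 for Ctsc and 0.0162 to 0.034 for Ctsk. The ratio of Arsb to the proximal tubule sum was 0.00722 to 0.0131, that of Gm2a 0.0271 to 0.0714 and that of Ctsf 0.0163 to 0.0547. These 3 ratios were highest in both WT_IR libraries.

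The other genes of the lysosome system were taken from lists chosen with earlier results of these data known. In WT_IR minus WT 23.17% of all tested genes were lower and 19.09% higher by FPKM. On the TPM scale these shares were 9.96% and 47.97%. The V-ATPase, the proton pump that acidifies lysosomes and also serves acid secretion by intercalated cells, had 17 of 23 tested subunits lower and 1 higher in WT_IR than in WT by FPKM, and 7 lower and 3 higher on the TPM scale. Atp6v1c2, a kidney-enriched subunit, fell from 19.0 and 16.6 FPKM to 3.67 and 3.94 (log2 change -1.97 ± 0.13, limma adjusted p = 7.92e-05). In KO and KO_IR it was at 15.4 and 18.4, and 13.1 and 15.7, so the WT_IR pair stood alone. Tcirg1, the pump subunit of osteoclasts and macrophages, rose from 8.81 and 9.08 FPKM to 20.4 and 23.3 (1.20 ± 0.10, adjusted p = 0.000201). In KO_IR minus WT_IR 14 subunits were higher and 1, Tcirg1, lower by FPKM, and 6 and 2 on the TPM scale. Of all tested genes 16.55% were higher and 13.49% lower there by FPKM, and 9.18% and 37.91% on the TPM scale.

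Of 32 other hydrolases 14 were lower and 3 (Plbd1, Pla2g15 and Naaa) higher in WT_IR by FPKM, but 5 lower and 12 higher on the TPM scale. All tested genes shifted as well, with 23.17% lower and 19.09% higher by FPKM, and 9.96% and 47.97% on the TPM scale. The fucosidase genes Fuca1 and Fuca2 fell from 99.3 and 87.8 FPKM to 43.4 and 43.6, and from 82.7 and 87.4 to 40.6 and 39.4. Of 21 tested membrane proteins outside the 41 genes 7 were higher and 7 lower by FPKM, and 11 and 0 on the TPM scale. Those with the smallest p were Cd68 (3.16 ± 0.15), a membrane protein of macrophage lysosomes, Laptm5 (2.71 ± 0.16), of hematopoietic cells, and Slc11a1 (2.03 ± 0.20), a metal transporter of phagocytes. Cd68 and Laptm5 were also the 2 called in KO_IR minus KO, at 1.34 and 1.06.

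The shares of all tested genes in WT_IR minus WT were 23.17% lower and 19.09% higher by FPKM, and 9.96% and 47.97% on the TPM scale. Of 13 genes that sort hydrolases to lysosomes 5 were lower and 0 higher by FPKM, and 0 and 6 on the TPM scale. They included Igf2r, a mannose 6-phosphate receptor gene (log2 change -0.48 by FPKM), and Gnptg, a subunit of the enzyme that makes the mannose 6-phosphate tag (-0.68). Of 23 regulators of mTORC1 and TFEB 8 were lower and 1 (Ywhaq) higher by FPKM, and 3 and 8 on the TPM scale, with Mtor at 26.7 and 31.1 FPKM in WT and 14.7 and 13.5 in WT_IR. Of the inhibitors of cysteine cathepsins 2 of 7 were tested. Cstb, stefin B, rose from 103 and 100.1 FPKM in WT to 279 and 337 in WT_IR (1.59 ± 0.13, limma adjusted p = 0.000172) and was at 114 and 108 in KO_IR, while Cst3 was not called (adjusted p = 0.136).

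**Figure D4:**
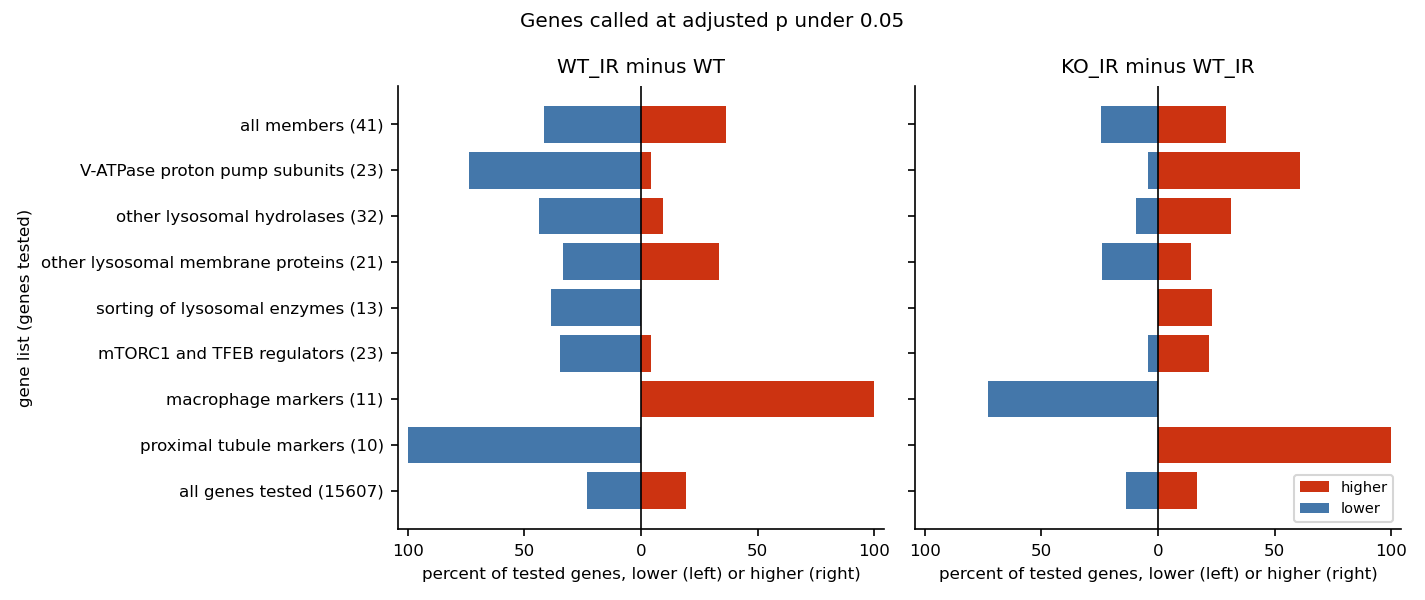
Percent of the tested genes of each list called higher (right) or lower (left) at an adjusted p under 0.05, on the FPKM scale. V-ATPase subunits lean lower (17 of 23) in WT_IR minus WT and higher (14 of 23) in KO_IR minus WT_IR. On the TPM scale the first count was 7 lower and 3 higher, beside 9.96% and 47.97% of all genes. The second was 6 higher and 2 lower there, beside 9.18% and 37.91%.

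Members with the E-box were called in both directions. Of the 12 members with CACGTG in the promoter window, 2 were higher (Ctsd and Arsa), 7 lower and 3 not called in WT_IR minus WT by FPKM. Of the 25 members matched to a promoter without it, 11 were higher, 9 lower and 5 not called. Of all tested genes 19.1% were higher and 23.2% lower, and the calls of other genes with CACGTG were not counted. Of the 7 lower with an E-box only Ctsf held on the TPM scale. The position of the E-boxes also varied, from 245 bases before the start in Ctsd to 6 bases after it in Ctsa, with 4 in a stretch before the start of Lamp1.

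**Figure D5:**
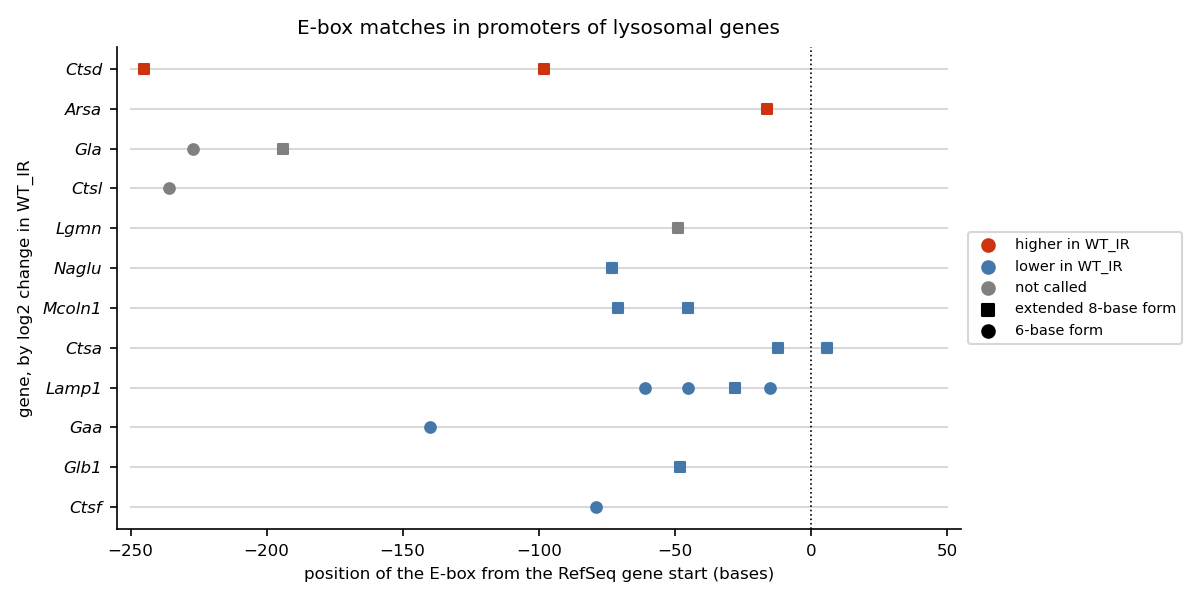
Position of each CACGTG in the promoter windows of the 12 members that hold it, in bases from the RefSeq gene start, ordered by the log2 change in WT_IR minus WT and coloured by the FPKM call. Squares are the extended form GTCACGTG; 2 genes were higher, 7 lower by FPKM (1 of them, Ctsf, also on the TPM scale) and 3 not called.

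Some members overlap other genes, and the sources used here do not say whether counting used strand. Lamp1 overlaps Grtp1 (at most 15.8 FPKM), Ctsz overlaps Nelfcd (14.3), Ctsb overlaps Fdft1 (10.4), Grn overlaps Fam171a2 (9.1) and Glb1 overlaps Tmppe (8.76). Ppt1 overlaps Cap1, which reached 63.5 FPKM against at most 28.0 for Ppt1, and Npc1 overlaps 3110002H16Rik, which reached 4.95 against at most 3.81 for Npc1. The levels of Ppt1 and Npc1 are therefore uncertain.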

How the data were processed

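The authors deposited FPKM values for 8 libraries. Alignment used HISAT2 2.0.5 with mm10 (GRCm38.p6), per the submitters' processing notes; for the counter, the annotation and the FPKM tool, nothing is given in the sources used here. The product of FPKM and gene length was a whole multiple of 1 step per library in 100% of genes (tolerance 1e-06), which gave the fragments. On a gene of 1 kb 3 fragments equal 0.148 to 0.206 FPKM, counting error only.

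Genes whose mean reached 0.5 FPKM were tested on log2(FPKM + 1), which understates changes of low genes, in limma 3.58.1 (R 4.3.3): 1 mean per group over all 8 libraries, a mean-variance trend, 4 residual and 3.04 prior degrees of freedom, and Benjamini-Hochberg adjustment over 15607 genes with a threshold of 0.05. Errors are SE of the fit. The labels do not say that replicates come from separate preparations, so p-values measure the spread between libraries. Whether the 2 libraries of a group were separate pools of mice is not known. A fit without 1 library leaves a group with 1, which is assumed to vary like the others. For these fits the counts of members are given without the shares of all genes. The members and lists were chosen with earlier results of these data known. All 41 members are named; of the other lists up to 4 genes with the smallest p, and genes that are 1 of 5 or fewer in a count. The alternatives were the pseudocount (0.1 or 5), the filter (none, or 5 FPKM), the scale (TPM or median-of-ratios factors), voom on fragments, the trend, a replicate block, only the groups compared, or 1 library left out. Each changed 1 choice, except voom, which changes the scale, the offset and the weights together. The fit was also run on simulated data with known changes in WT_IR, as a check of the code and not of the scale.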

Additional observations from a re-analysis of the deposited data

Results flagged for a closer look

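The response to IR differed between WT and KO by the interaction test in 14 members (limma adjusted p under 0.05). Among all tested genes 9.62% were called higher and 6.68% lower. Values are the log2 change in KO minus that in WT. The values were -1.72 for Ctss, -0.99 for Ctsc, -0.91 for Ctsk, -0.78 for Ctsd and -0.52 for Gusb. They were 1.27 for Arsb, 1.22 for Gm2a, 0.79 for Glb1, 0.79 for Ctsf, 0.62 for Galc, 0.5 for Lamp1, 0.47 for Man2b1, 0.44 for Ctsa and 0.38 for Gaa. Adjusted p ran from 0.00413 for Gm2a to 0.0449 for Ctsa. On the TPM scale Arsb and Gm2a kept a positive call and the other 7 positive values did not pass. All genes had 4.77% higher and 24.24% lower there. With median-of-ratios factors 8 of the 9 positive calls held. The call of Gusb was lost without any 1 of 7 libraries, and those of Lamp1 and Gaa without each of the 8.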

How the results depend on the processing

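The counts depended on the scale. On the TPM scale members called lower in WT_IR minus WT went from 17 to 4, in KO_IR minus WT_IR higher from 12 to 4 and lower from 10 to 20, and in the interaction higher from 9 to 2 and lower from 5 to 16. The matching shares of all genes went from 23.17% to 9.96%, from 16.55% to 9.18% and from 13.49% to 37.91%. In the interaction they went from 9.62% to 4.77% and from 6.68% to 24.24%. With voom on recovered fragments the lower count in WT_IR minus WT was 7, the lower count in KO_IR minus WT_IR 19, and the interaction counts 5 higher and 12 lower. The matching shares of all genes with voom were 12.67% and 32.97%, and in the interaction 6.79% and 17.22%. With median-of-ratios factors the counts were 15 higher and 16 lower in WT_IR minus WT, 12 and 12 in KO_IR minus WT_IR and 8 and 5 in the interaction. All genes then had 20.02% higher and 21.89% lower, 16.13% and 14.32%, and 9.15% and 7.03%. On each scale 3 were higher in KO_IR minus KO, and this number fell from 3 to 0 with no filter and with only the groups of the comparison. Among members called on either scale the sign turned with TPM in WT_IR minus WT for Ctsa (0.11), Ctsh (0.19), Lgmn (0.46), Tpp1 (0.21), Naglu (0.18), Psap (0.12), Ppt1 (0.39), Lamp2 (0.12), Cd63 (0.43), Mcoln1 (0.16) and Tfeb (0.12), in KO_IR minus WT_IR for Tpp1 (-0.073), Psap (-0.29) and Ppt1 (-0.021), and in the interaction for Gaa (-0.044). With voom Ctsh (0.041), Lgmn (0.31), Tpp1 (0.064), Naglu (0.035), Cd63 (0.28) and Mcoln1 (0.013) turned in WT_IR minus WT. Counting also members called on neither scale, the sign turned with TPM in 13 of 41 in WT_IR minus WT, 4 in KO_IR minus KO, 6 in KO minus WT, 12 in KO_IR minus WT_IR and 13 in the interaction, and with voom in 8, 4, 4, 10 and 8. These scales divide by other totals; beyond that the cause was not tested. Leaving out each library in turn gave 10 to 12 higher and 10 to 16 lower in WT_IR minus WT, 0 to 2 higher in KO_IR minus KO, 7 to 12 higher and 6 to 10 lower in KO_IR minus WT_IR, and 3 to 7 higher and 2 to 5 lower in the interaction. KO minus WT had 0 calls under every setting.

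Same-numbered libraries did not deviate together (r of -0.122 to 0.164 between groups), so the numbers were not used as pairs. With a replicate block the counts were 13 higher and 18 lower in WT_IR minus WT, 3 and 0 in KO_IR minus KO, 0 and 0 in KO minus WT, 12 and 10 in KO_IR minus WT_IR, and 7 and 5 in the interaction.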
